A study of Mus musculus with 12 samples.

Results

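The protein-coding genes that interferons switch on, Irf1, Irf7, Isg15, Ifit1, Ifit3, Rsad2, Bst2, Oasl2 and Gbp2, were followed in epididymal white adipose tissue (eWAT). They were taken by gene symbol from a read count table, which makes 9 of 49315 genes, and all 9 passed the filter on low counts that left 18702 genes for testing. The 12 mice were male and obese from a high-fat diet (HFD, 60% fat) eaten for 12 weeks, with 3 mice and 1 library per mouse in each group. Flox mice carried miR-181a2b2 flox/flox alleles, with the locus intact, and KO mice were miR-181a2b2-/-, lacking the microRNA pair Mir181a-2 and Mir181b-2 in every tissue. Mice of either genotype were injected each week with vehicle (flox vehicle, KO vehicle) or with 1 mg/kg methotrexate, an antifolate drug (flox MTX, KO MTX). The mice were littermates matched for age and cage, per the methods, and their age is not given in the sources used here. The libraries held 19495310 to 23976469 counts, and levels are given in CPM, the counts of a gene scaled to a common library total, with TMM factors.

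Interferons are secreted signalling proteins. Cells release type I interferons after sensing foreign or misplaced nucleic acids, and T and NK cells release interferon gamma when they are activated. Type I interferons bind the receptor Ifnar1/Ifnar2 and act through a complex that holds Irf9 on a promoter element called the ISRE, while interferon gamma binds Ifngr1/Ifngr2 and acts on an element called GAS. The genes that respond encode transcription factors that carry the signal on, proteins that bind or degrade viral RNA, and proteins that hold back budding particles or attack vacuoles. In fat of obese animals such genes are expressed by macrophages and other immune cells, and also by adipocytes and endothelium. Since the RNA came from whole tissue, a change in the number of cells of a type and a change in RNA per cell cannot be told apart.

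The promoters of the members were read in the 250 bases before each RefSeq start site (build GRCm38.p6), and both strands were searched for the ISRE letters GAAANNGAAA and the GAS letters TTCNNNGAA. All 9 members had a promoter entry. The ISRE letters occurred in 6 of the 9, against 978 of 32851 promoters of mouse genes (2.98%), and the GAS letters in 2 of the 9, against 2306 promoters (7.02%). The stretches around the matches are shown because they hold the matched letters, and the promoters were not compared with each other. Capitals mark the matched letters, every stretch runs 5′ to 3′ on the strand of its gene, and overlapping matches run together.
Irf1, chr11:53769904-53769952, plus strand, 1 GAS match: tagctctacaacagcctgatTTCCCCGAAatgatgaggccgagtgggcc
Isg15, chr4:156200855-156200916, minus strand, 3 ISRE matches that overlap: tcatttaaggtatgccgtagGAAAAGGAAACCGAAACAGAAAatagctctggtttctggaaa
Ifit1, chr19:34640765-34640833, plus strand, 2 ISRE matches on the opposite strand: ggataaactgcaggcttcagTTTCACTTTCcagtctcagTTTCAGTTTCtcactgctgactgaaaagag
Ifit3, chr19:34583353-34583436, plus strand, 2 ISRE matches on the opposite strand: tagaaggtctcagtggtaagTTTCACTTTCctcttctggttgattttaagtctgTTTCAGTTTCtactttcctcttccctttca
Rsad2, chr12:26456543-26456592, minus strand, 1 ISRE match on the opposite strand: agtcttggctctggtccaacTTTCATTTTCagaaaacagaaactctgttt
Bst2, chr8:71537567-71537628, minus strand, 1 GAS match that overlaps the first of 2 ISRE matches: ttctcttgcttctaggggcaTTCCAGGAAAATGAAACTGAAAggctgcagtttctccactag
Gbp2, chr3:142620594-142620623, plus strand, 1 ISRE match on the opposite strand: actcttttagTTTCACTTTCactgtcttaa

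The ISRE matches lay between positions -156 and -50 from the start, the nearest in Gbp2 and the farthest in Ifit3. Ifit1 and Ifit3, both on chromosome 19, carried a pair each. In Gbp2 the GENCODE M21 gene begins at 142620602, upstream of the RefSeq start, so that most of the shown stretch lies within the annotated gene. Irf7 and Oasl2 had no match to either pattern in this window, and neither had the second RefSeq start of Irf1. A match is a run of letters and was not tested as a binding site.

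**Figure D1:**
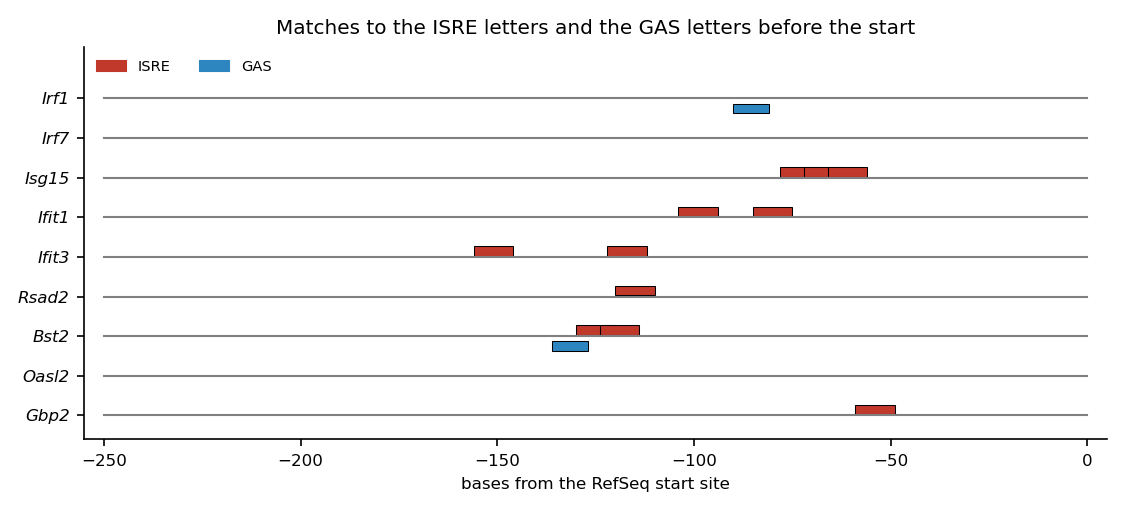
Positions of the ISRE letters (red, above the line) and the GAS letters (blue, below the line) in the 250 bases before the RefSeq start of each member (x axis, bases from the start). Isg15 had 3 ISRE matches, Ifit1, Ifit3 and Bst2 had 2 each, Rsad2 and Gbp2 had 1, and Irf7 and Oasl2 had none.

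Some features of the libraries touch every comparison below. All 12 adipocyte markers were above 3 counts in every library, and their summed level was 19840 to 63420 CPM of all counts. The flox vehicle libraries held transcripts of 13 epididymal genes at 1784 to 14980 CPM in sum, against 1.28 to 485 CPM in the other 9 libraries. They also held 10 sperm cell genes at 205 to 587 CPM, against at most 11.9 CPM elsewhere. A difference of genotype or drug measured from flox vehicle therefore cannot be told apart from this difference in tissue content. The summed level of 12 macrophage markers was 563 to 925 CPM in flox vehicle, 3915 to 7391 CPM in KO vehicle, 641 to 4221 CPM in flox MTX and 5093 to 8485 CPM in KO MTX mice. No gene of the macrophage list was at 0. The precursor of Mir181a-2 had 2 counts in 1 library and that of Mir181b-2 had none, so the deletion could not be checked in these data.

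The transcription factors Irf1 and Irf7 differed in how far they separated the groups. Irf1 (ENSMUSG00000018899, chromosome 11 of GRCm38, 53770014 to 53778374, plus strand) is induced by interferon gamma and activates immune promoters. Its level was 34.8, 28.8 and 34.5 CPM in flox vehicle mice and 51.8, 60.1 and 53.9 CPM in KO vehicle mice. With MTX it was 41.3, 52.5 and 33.6 CPM in flox mice and 48.5, 60.6 and 51.0 CPM in KO mice. All 6 KO mice were above all flox vehicle mice, and the flox MTX mice spread across both ranges. Irf7 (ENSMUSG00000025498, chromosome 7, 141262706 to 141266481, minus strand) amplifies type I interferon production. Its level was 26.5, 24.1 and 15.1 CPM in flox vehicle, 27.9, 30.4 and 29.0 CPM in KO vehicle, 18.6, 30.4 and 33.3 CPM in flox MTX and 24.5, 25.7 and 27.6 CPM in KO MTX mice. The flox mice were spread widely under both treatments (SD 5.99 and 7.79 CPM, n = 3 each) and the KO mice lay close together (SD 1.28 and 1.56 CPM, n = 3 each).

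Isg15 (ENSMUSG00000035692, chromosome 4, 156199424 to 156200818, minus strand) encodes a ubiquitin-like protein that is attached to other proteins during the interferon response. It was the least abundant member in CPM, with 3.69, 5.07 and 3.60 CPM in flox vehicle mice and 6.60, 6.73 and 8.95 CPM in KO vehicle mice. Under MTX the levels were 6.38, 8.04 and 8.38 CPM in flox mice and 8.18, 6.76 and 6.38 CPM in KO mice. The flox vehicle mice lay below all 9 others, whose groups overlapped. The lowest count behind an Isg15 value was 78 reads.

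Ifit1 (ENSMUSG00000034459, chromosome 19, 34640871 to 34650009, plus strand) encodes a protein that binds RNA lacking the cap marks of host mRNA, and Ifit3 (ENSMUSG00000074896, chromosome 19, 34583531 to 34588731, plus strand) encodes its partner. Ifit1 stood at 7.64, 5.19 and 6.60 CPM in flox vehicle, 11.3, 11.6 and 9.94 CPM in KO vehicle, 10.1, 13.1 and 14.9 CPM in flox MTX and 13.1, 7.06 and 9.18 CPM in KO MTX mice. The KO MTX group was the only one of the 3 that reached down into the flox vehicle range. Ifit3 stood at 16.0, 15.1 and 21.8 CPM in flox vehicle, 26.0, 27.1 and 20.01 CPM in KO vehicle, 23.0, 23.95 and 39.1 CPM in flox MTX and 25.2, 14.5 and 23.0 CPM in KO MTX mice. Here flox MTX replicate 4 stood far above every other mouse, and the lowest mouse of all 12 was KO MTX replicate 3. How reads shared with the close copy Ifit3b and with other Ifit genes were counted is not stated, so the values of both genes are uncertain to that extent.

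Rsad2 (ENSMUSG00000020641, chromosome 12, 26442746 to 26456452, minus strand) encodes viperin, an enzyme that makes a chain-terminating nucleotide. Its level was 13.8, 11.1 and 10.02 CPM in flox vehicle mice, 24.2, 32.0 and 22.9 CPM in KO vehicle mice, 22.3, 26.5 and 18.6 CPM in flox MTX mice and 33.9, 18.6 and 29.3 CPM in KO MTX mice. Every mouse outside the flox vehicle group was above all of that group.

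Bst2 (ENSMUSG00000046718, chromosome 8, 71534255 to 71537456, minus strand) encodes tetherin, which holds budding virus particles at the cell surface. It was 29.5, 28.0 and 30.8 CPM in flox vehicle mice, 67.6, 63.0 and 67.2 CPM in KO vehicle mice, 49.1, 70.7 and 57.2 CPM in flox MTX mice and 74.9, 69.7 and 63.5 CPM in KO MTX mice. The flox vehicle group was tight (29.4 ± 1.42 CPM, SD, n = 3) and lay well below the lowest of the other 9 mice. Per length of exon Bst2 was the most abundant member in both flox vehicle (32.6 CPM per kb) and KO MTX mice (76.8 CPM per kb), ahead of Gbp2 (17.1 and 25.5 CPM per kb).

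Oasl2 (ENSMUSG00000029561, chromosome 5, 114896936 to 114912234, plus strand) encodes a relative of the oligoadenylate synthetases, the enzymes that activate RNase L. Its level was 16.3, 9.76 and 13.6 CPM in flox vehicle, 34.0, 38.9 and 45.1 CPM in KO vehicle, 26.6, 62.5 and 33.3 CPM in flox MTX and 38.2, 57.0 and 39.2 CPM in KO MTX mice. It had the widest range of the members, 6.41-fold between its highest mouse (flox MTX replicate 2) and its lowest (flox vehicle replicate 3).

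Gbp2 (ENSMUSG00000028270, chromosome 3, 142620602 to 142638008, plus strand) encodes a guanylate-binding protein that attacks vacuoles holding microbes and responds strongly to interferon gamma. It was 39.7, 34.7 and 54.7 CPM in flox vehicle mice and 57.4, 42.9 and 43.7 CPM in KO vehicle mice, and these ranges overlapped. It was 81.0, 78.4 and 93.5 CPM in flox MTX mice and 63.6, 50.2 and 78.8 CPM in KO MTX mice. The flox MTX mice were above all vehicle mice of either genotype. Its family members share sequence, and how shared reads were assigned is not stated.

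**Figure D2:**
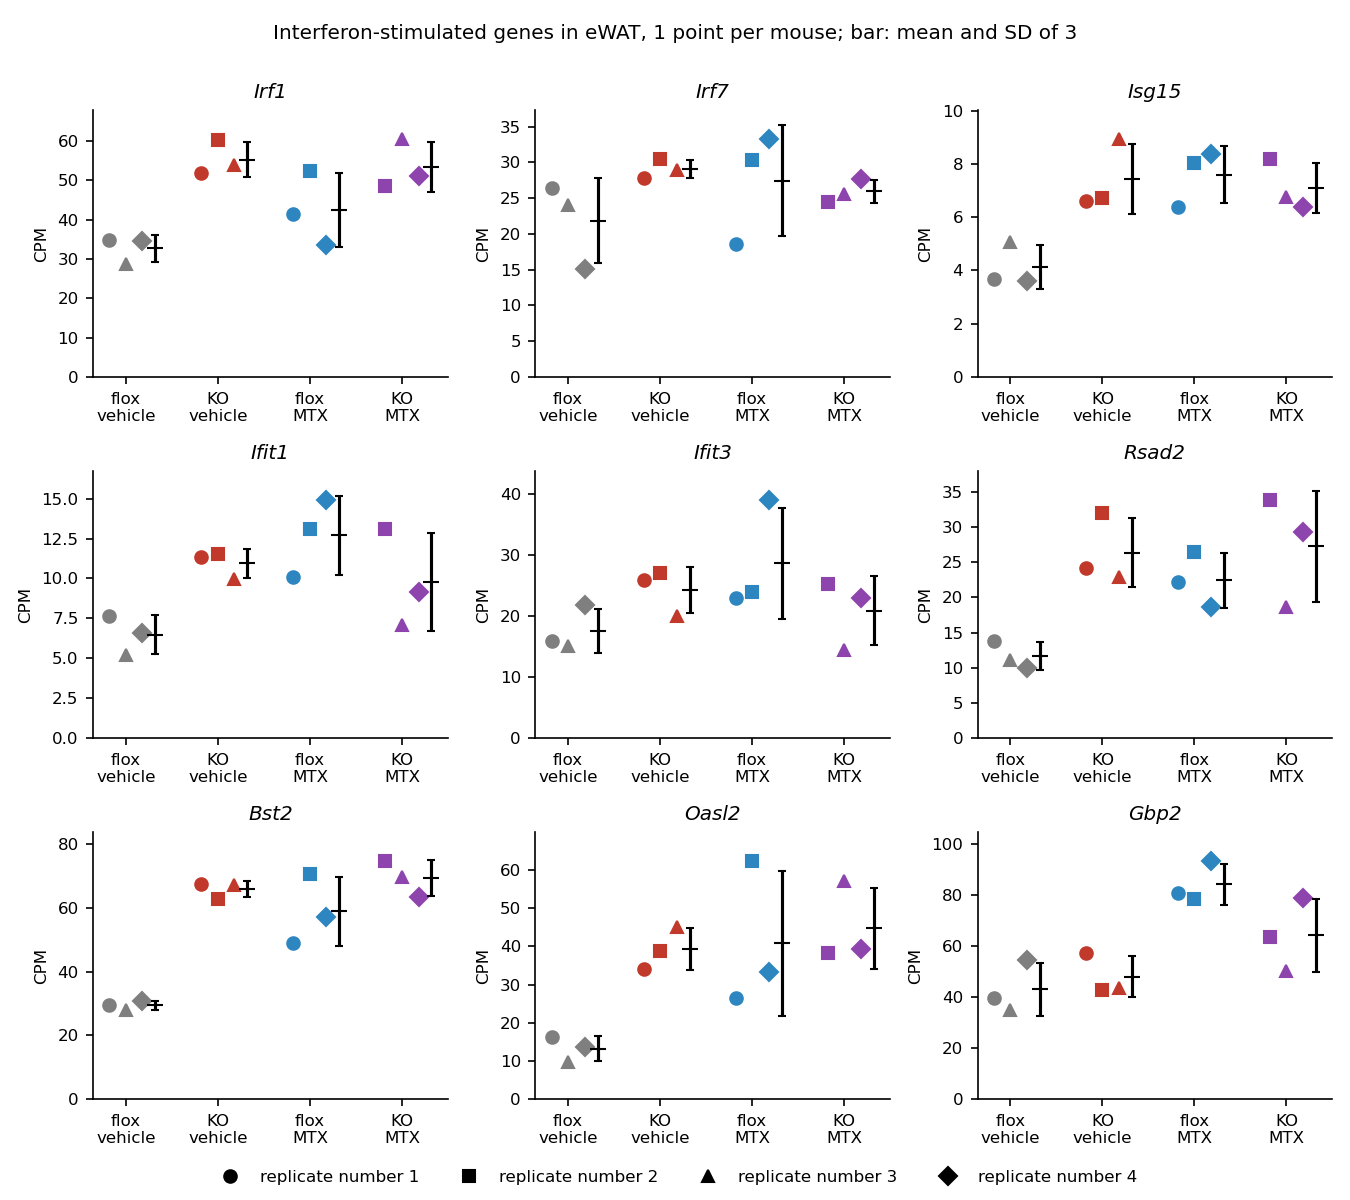
Levels of the 9 members (y axis, CPM, each panel from 0) in the 4 groups, with 1 point per mouse, the shape giving the replicate number and the bar the mean and SD of 3 mice. The flox vehicle mean was the lowest of the 4 in all 9 panels, and for Bst2 the 3 flox vehicle mice at 28.0 to 30.8 CPM lay below all other mice, the next at 49.1 CPM.

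All 4 pairwise comparisons and their interaction came from 1 edgeR fit to the 12 libraries. The first comparison set KO against flox mice in obese fat without the drug. In all, 6 members rose in KO vehicle against flox vehicle mice, and none fell. To be called, a gene had to change by 1.5-fold or more with a Benjamini-Hochberg adjusted p under 0.1 over the 18702 genes tested. Of all genes tested, 13.9% were called higher here. Oasl2 rose the most, by 1.57 on the log2 scale (SE 0.31, edgeR adjusted p = 0.005). Its mean was 13.2 ± 3.30 CPM in flox and 39.3 ± 5.57 CPM in KO mice (SD, n = 3 each). Rsad2 rose by 1.18 (SE 0.24, edgeR adjusted p = 0.00546) and Bst2 by 1.16 (SE 0.14, edgeR adjusted p = 0.00276) on the log2 scale. Isg15 rose by 0.85 (SE 0.23, edgeR adjusted p = 0.0174), Irf1 by 0.76 (SE 0.17, edgeR adjusted p = 0.00689) and Ifit1 by 0.76 (SE 0.25, edgeR adjusted p = 0.0442). Irf7 (log2 fold change 0.41, 95% interval -0.10 to 0.92), Ifit3 (0.47, -0.12 to 1.05) and Gbp2 (0.16, -0.30 to 0.61) did not pass, with adjusted p of 0.21, 0.208 and 0.603. The KO mice were all above the flox mice for 7 members, the 6 called ones and Irf7, while 22.8% of all genes tested were separated in that direction.

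The median log2 fold change of the 9 members was 0.76, beside -0.06 over all genes tested. Without flox vehicle replicate 3, the library richest in epididymal transcripts, 5 of the 9 were called and Ifit1 was lost (log2 fold change 0.62, edgeR adjusted p = 0.134). In that fit 2185 of 19024 genes tested were called higher. Ifit1 was also lost without KO vehicle replicate 2 (edgeR adjusted p = 0.103). With a call limit of 1.5 on the log2 scale, the other reading of the limit in the methods, Oasl2 alone remained. At that limit 1005 of the 18702 genes tested were called higher. All 12 macrophage markers, all 8 fibroblast markers and 7 of 8 endothelial markers were called higher in the same comparison, and 2 of 12 adipocyte markers were called lower. The fibroblast sum was 1897 to 3619 CPM in flox and 7155 to 11610 CPM in KO mice, the endothelial sum 363 to 535 and 723 to 1124 CPM, and the adipocyte sum 28050 to 57190 and 30280 to 46390 CPM. Their part in the members' difference was not tested.

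The second comparison set MTX against vehicle in mice with the locus intact. In flox MTX against flox vehicle mice 7 members rose and none fell, where 8.09% of all genes tested were called higher. This comparison shares the 3 flox vehicle mice with the first, so the calls of the 2 comparisons do not count as separate evidence. Oasl2 rose by 1.63 on the log2 scale (SE 0.31, edgeR adjusted p = 0.00802), to 40.8 ± 19.1 CPM (SD, n = 3). Bst2 rose by 1.00 (SE 0.14, edgeR adjusted p = 0.0042), Gbp2 by 0.97 (SE 0.21, edgeR adjusted p = 0.0117) and Ifit1 by 0.97 (SE 0.25, edgeR adjusted p = 0.0243). Rsad2 rose by 0.95 (SE 0.24, edgeR adjusted p = 0.0217), Isg15 by 0.88 (SE 0.23, edgeR adjusted p = 0.0236) and Ifit3 by 0.70 (SE 0.27, edgeR adjusted p = 0.087). The regulators did not pass: Irf1 had a log2 fold change of 0.38 (95% interval 0.02 to 0.74, adjusted p = 0.13) and Irf7 of 0.33 (-0.19 to 0.84, adjusted p = 0.352). Drug-treated mice were all above vehicle mice for the 7 called members, against 10.9% of all genes tested.

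The Ifit3 call was the least stable. It was lost in 11 of 21 alternatives, 6 of which each left out 1 library, with a log2 fold change of 0.42 (edgeR adjusted p = 0.277) without flox MTX replicate 4 and 0.60 (edgeR adjusted p = 0.259) without flox vehicle replicate 3. Isg15 was lost when only the 6 libraries of the comparison were fitted (edgeR adjusted p = 0.142). The limit of 1.5 on the log2 scale again left Oasl2 alone, with 585 of the 18702 genes tested called higher. With library size as the only scaling, the median of all genes moved from 0.05 to -0.15 and that of the members from 0.95 to 0.77. With that scaling 6 members were called, and 766 of the 18702 genes tested were called higher. Of the markers, 11 of 12 macrophage genes, 7 of 11 T and NK cell genes and 5 of 8 fibroblast genes were called higher, and none of the 12 adipocyte and 8 endothelial genes. In flox MTX mice the fibroblast sum was 2891 to 6493 CPM, overlapping the flox vehicle range, and the sum of 6 neutrophil markers was 25.7 to 79.7 CPM, against 8.28 to 20.3 CPM in flox vehicle mice. Their part in the result was not tested.

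The members ordered the 3 flox MTX mice in different ways. Irf1 and Rsad2 followed the order of the macrophage sums, highest in replicate 2 and lowest in replicate 4. Replicate 4 had a macrophage sum of 641 CPM, within the flox vehicle range, and held the highest Irf7, Ifit1, Ifit3 and Gbp2 values of all 12 mice. Its TMM factor was the lowest of all libraries (0.821). Member levels carry these factors and the macrophage sums do not, so they are scaled differently and part of this contrast comes from the scaling. Divided by total counts alone, Ifit3 stayed highest of all 12 mice in replicate 4, while Irf7, Ifit1 and Gbp2 did not. Gbp2, for example, had 1496 of 19495310 counts there and 1725 of 21637037 in replicate 2. Replicate 2 had a macrophage sum of 4221 CPM and the highest Oasl2 value, with the highest Irf1, Rsad2 and Bst2 of its group. Replicate 1, at 2218 CPM, was the lowest of its group for Irf7, Isg15, Ifit1, Ifit3, Bst2 and Oasl2. Among KO MTX mice, replicate 3 had the highest macrophage sum of all libraries (8485 CPM), the highest Irf1 of all mice at 60.6 CPM, and the lowest Ifit1, Ifit3, Rsad2 and Gbp2 of its group. Markers of T and NK cells summed to 7.66 to 13.9 CPM in flox vehicle, 14.7 to 26.5 CPM in KO vehicle, 15.4 to 68.4 CPM in flox MTX and 27.8 to 53.2 CPM in KO MTX mice, and markers of plasmacytoid dendritic cells to 6.60 to 12.0, 13.6 to 20.8, 10.8 to 36.3 and 18.7 to 35.7 CPM. The T and NK cell sum was highest in flox MTX replicate 2. The dendritic cell sum of that library was mostly Ly6d (21.6 of 36.3 CPM), which B cells also express, while Siglech, the most specific marker of the list, was 0.435 to 1.38 CPM over all libraries.

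**Figure D3:**
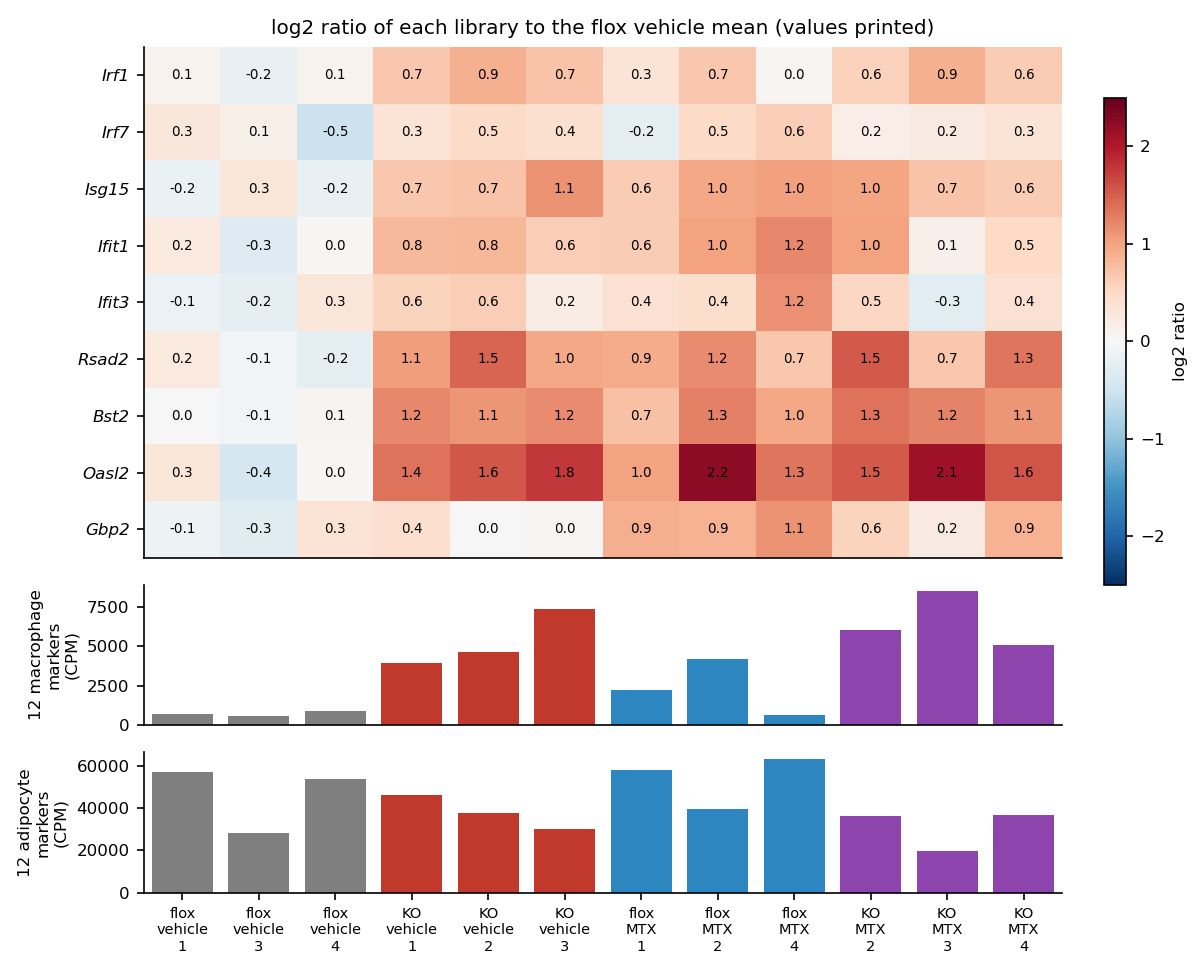
log2 ratio of each library to the mean of the 3 flox vehicle mice for the 9 members (rows, colour and printed value), above the summed levels of 12 macrophage and 12 adipocyte markers (CPM) in the same 12 libraries (columns). In flox MTX replicate 4 Ifit3, Ifit1 and Gbp2 were 1.1 to 1.2 above the flox vehicle mean while its macrophage sum was 641 CPM. The member levels carry TMM factors, the lowest being that of this library, and the marker sums do not.

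The third comparison set MTX against vehicle in KO mice. No member was called and none had an unadjusted p below 0.05 in edgeR, and DESeq2 called none. Among all genes tested edgeR called 0%, 7.97% had an unadjusted p below 0.05, and DESeq2 called 281 genes. The log2 fold changes ran from -0.22 (Ifit3) to 0.42 (Gbp2), with adjusted p of 0.66 to 0.981. For Bst2 the change was 0.07 with a 95% interval of -0.22 to 0.37, and for Irf1 it was -0.05 with an interval of -0.41 to 0.31. The intervals of Oasl2 (0.19, -0.48 to 0.86) and Gbp2 (0.42, -0.04 to 0.88) reached highest, and all 9 ended below 1 on the log2 scale, which is a 2-fold rise. Irf7 was the 1 member whose groups did not overlap, with KO MTX mice lower, where 20.7% of all genes tested were separated in either direction.

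The fourth comparison set KO against flox mice under MTX. Again no member was called or had an unadjusted p below 0.05 in edgeR, DESeq2 called none, and the groups overlapped for all 9. Among all genes tested edgeR called 0%, 24.5% had an unadjusted p below 0.05, 26.8% did not overlap, and DESeq2 called 2769 genes. A positive log2 fold change was found for 4 members, led by Irf1 (0.33, 95% interval -0.03 to 0.69) and Rsad2 (0.28, -0.24 to 0.80). The other 5 had a negative one, led by Ifit3 (-0.45, -1.04 to 0.13), Gbp2 (-0.39, -0.85 to 0.06) and Ifit1 (-0.38, -0.93 to 0.17). The adjusted p ran from 0.243 to 0.857. The macrophage sums of these groups did not overlap, and 9 of the 12 macrophage markers had an unadjusted p below 0.05 with KO higher, though none was called. The adipocyte sums did not overlap either, at 39780 to 63420 CPM in flox and 19840 to 36940 CPM in KO mice. Of the 12 adipocyte markers, 8 had an unadjusted p below 0.05 in edgeR with KO lower. The part of these cells in the members' values was not tested.

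The difference between the drug's effect in KO mice and in flox mice, the interaction, was negative for all 9 members. It was negative for 10016 of the 18702 genes tested. It was called for Bst2 alone, at -0.93 on the log2 scale (SE 0.19, 95% interval -1.35 to -0.51, edgeR adjusted p = 0.086), where 0.0909% of all genes tested, 17 genes, were called lower. Bst2 rose by 1.00 with MTX in flox mice and had 0.07 in KO mice, whose vehicle level (65.9 ± 2.54 CPM, SD, n = 3) was already above the flox MTX mean (59.0 ± 10.9 CPM). The unadjusted p was below 0.05 for 6 of the 9, Isg15, Ifit1, Ifit3, Rsad2, Bst2 and Oasl2, against 5.45% of all genes tested in that direction. The interaction was also negative for 11 of 12 macrophage markers (median -1.37) and all 8 fibroblast markers (median -1.25), beside a member median of -0.92. For 8 of 10 epididymal genes tested and all 10 sperm cell genes it was positive. The part of these cells in the members' interaction was not tested. Oasl2 (-1.44, 95% interval -2.39 to -0.49, adjusted p = 0.171) and Ifit1 (-1.13, -1.91 to -0.35, adjusted p = 0.185) had the most negative values. DESeq2 called 4 members, all with a negative difference. It called 1248 of all 18702 genes tested, 980 of them with a positive one. The Bst2 call was lost in 14 of 20 alternatives, among them 10 of the 12 that leave out 1 library, with adjusted p of up to 0.3 and a difference of -0.77 to -0.999 where it was lost.

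**Figure D4:**
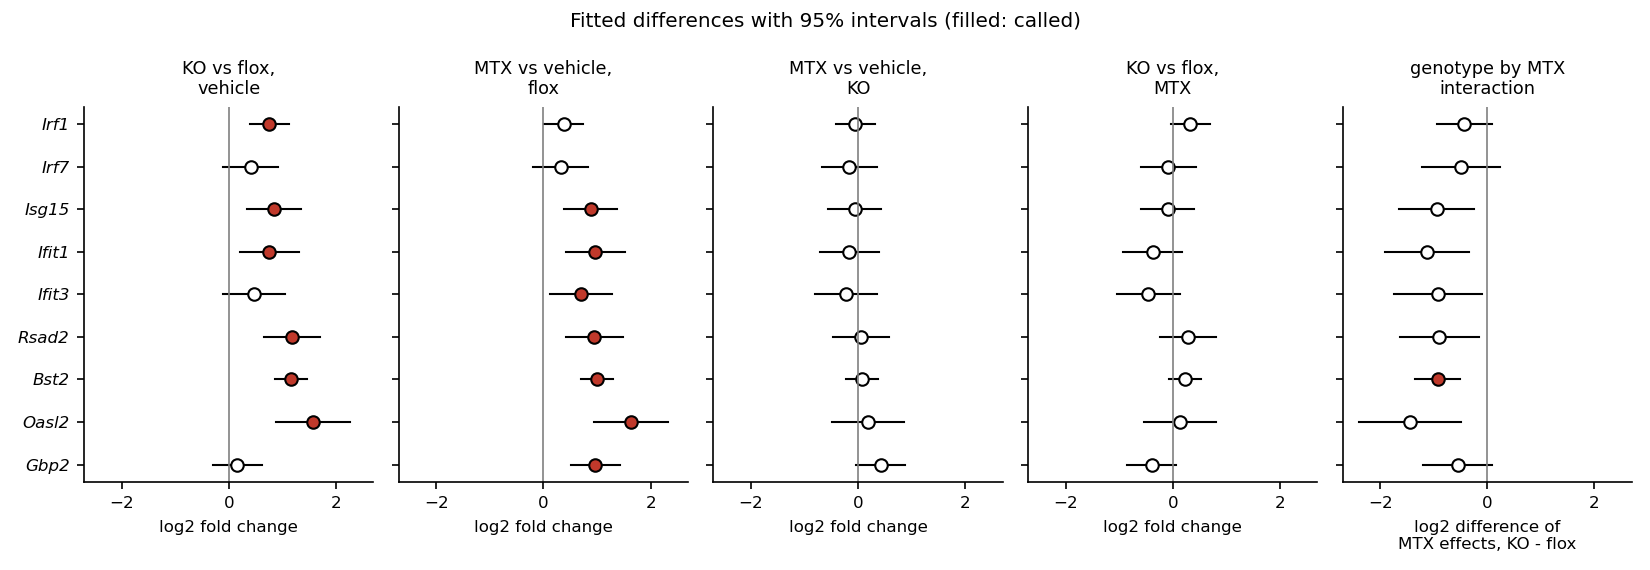
Fitted differences of the 9 members in the 5 comparisons (x axis, log2 scale; bars, 95% intervals; filled points, genes that passed both call limits). In all, 6 members were called in KO against flox under vehicle, 7 in MTX against vehicle in flox mice, none in the next 2 panels and Bst2 alone in the interaction.

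Wider lists of the pathway were read in the same fit. Of 30 further genes known to respond to type I interferon, 17 rose in KO vehicle against flox vehicle mice and none fell, where 13.9% of all genes tested were called higher and 17.8% lower. The median log2 fold change of the list was 0.77. Ifitm3, which blocks virus entry, rose by 1.33 (SE 0.17), Phf11d by 1.59 (SE 0.22) and Ifi211, of the family of DNA-binding p200 proteins, by 1.74 (SE 0.27), with edgeR adjusted p of 0.00276, 0.00276 and 0.00301. Of 25 genes known to respond to interferon gamma 8 rose (median 0.51), among them the immunoproteasome subunits Psmb10 (1.01, SE 0.22, edgeR adjusted p = 0.00692) and Psmb8 (1.18, SE 0.27, edgeR adjusted p = 0.00891) and the GTPase Iigp1 (1.02, SE 0.28, edgeR adjusted p = 0.0181). In flox MTX against flox vehicle mice 15 of the 30 rose (median 0.62) and 14 of the 25 (median 0.77), and none of either list fell, where 8.09% of all genes tested were called higher and 16.1% lower. There Ifitm3 rose by 1.02, Ifi211 by 1.36 and Ifi44 by 1.48, and Psmb10 by 0.94, Gbp3 by 1.00 and Iigp1 by 1.13, with edgeR adjusted p of 0.00498 to 0.0194.

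Receptors and signal carriers moved in both directions. Of 18 such genes, 8 rose and 2 fell in KO vehicle against flox vehicle mice (median 0.54), beside the same 13.9% and 17.8% of all genes. The receptor chain Ifnar1 rose by 0.74 (SE 0.13, edgeR adjusted p = 0.00388), the Isg15-conjugating enzyme Ube2l6 by 1.39 (SE 0.26, edgeR adjusted p = 0.00413) and Irf5, a transcription factor of myeloid cells, by 2.25 (SE 0.44, edgeR adjusted p = 0.00482). The 2 that fell were the kinase Jak2, by 0.73 (edgeR adjusted p = 0.00513), and Ifnlr1, a chain of the interferon lambda receptor, by 1.78 (edgeR adjusted p = 0.0463). They are named here after their values were seen. Within flox vehicle mice both followed the order of the summed epididymal genes, highest in replicate 3 and lowest in replicate 4. Jak2 was 49.5, 69.8 and 49.2 CPM in replicates 1, 3 and 4, where these sums were 5425, 14980 and 1784 CPM. The part of the epididymal transcripts in the falls of Jak2 and Ifnlr1 was not tested. In flox mice 7 were called higher with MTX and 1 lower (median 0.37). Of all genes tested 8.09% were called higher there and 16.1% lower. Ube2l6 was up by 1.23 and Ifnar2 by 0.69 (edgeR adjusted p of 0.0103 and 0.0189), and Ifnlr1 was down by 1.67 (edgeR adjusted p = 0.0735). This fall of Ifnlr1 was measured from the same flox vehicle mice, so the same limit holds for it.

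Of 17 sensors of foreign RNA and DNA and their adaptors, 16 were tested and Trex1 was listed at 0 in every library. In all, 8 rose in KO vehicle against flox vehicle mice (median 0.54), where 13.9% of all genes tested were called higher. The smallest p was that of Tlr7, the endosomal receptor for single-stranded RNA, at 2.96 (SE 0.49, edgeR adjusted p = 0.00335). Next came the kinase Ikbke at 1.57 (SE 0.34, edgeR adjusted p = 0.00651) and the RNA helicase Dhx58 at 0.93 (SE 0.20, edgeR adjusted p = 0.00673). With MTX 7 were called higher in flox mice (median 0.56), where 8.09% of all genes tested were. Zbp1 was up by 1.17, Tlr7 by 2.11 and Dhx58 by 0.68 (edgeR adjusted p of 0.00667, 0.0145 and 0.0389). Tlr7 followed the order of the macrophage sums within flox MTX mice, with 16.2, 28.0 and 6.25 CPM in replicates 1, 2 and 4. The part of macrophage content in the rise of Tlr7 was not tested.

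In the comparisons under MTX and within KO mice edgeR called none of these wider genes. For KO against flox under MTX the medians were 0.33 for the type I list, 0.01 for the interferon gamma list, 0.33 for the signal carriers and 0.57 for the sensors, beside -0.08 for the members. At an unadjusted p below 0.05, KO was higher for 6 of 30, 0 of 25, 6 of 18 and 9 of 16, and lower for 1, 2, 0 and 0, where 11.5% of all genes tested were higher and 12.9% lower. The shares of the interferon gamma list, in both directions, and of the lower genes in the other lists were thus below those of all genes. The genes with the smallest p included Oas1a (1.19, edgeR adjusted p = 0.106) and Mx2 (0.94, edgeR adjusted p = 0.113) of the type I list, Gbp7 (-0.51, edgeR adjusted p = 0.149) and Gbp3 (-0.60, edgeR adjusted p = 0.164) of the gamma list, and Tyk2 (0.75), Ifnar1 (0.50), Ticam1 (0.83) and Tbk1 (0.54), each at an edgeR adjusted p of 0.104. For MTX against vehicle in KO mice the medians were 0.12, 0.14, 0.14 and 0.24, and 1, 0, 1 and 1 genes were higher at an unadjusted p below 0.05, where 3.42% of all genes tested were, the smallest p being that of Tlr9 (1.65, edgeR adjusted p = 0.346). In the interaction 1 of these genes was called, Ifitm3, at -1.08 (SE 0.23, edgeR adjusted p = 0.0924). Its levels were 63.2, 64.5 and 69.9 CPM in flox vehicle, 161, 161 and 173 CPM in KO vehicle, 136, 163 and 102 CPM in flox MTX and 156, 175 and 143 CPM in KO MTX mice, so that, as for Bst2, the flox vehicle mice lay apart from the other 9.

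**Figure D5:**
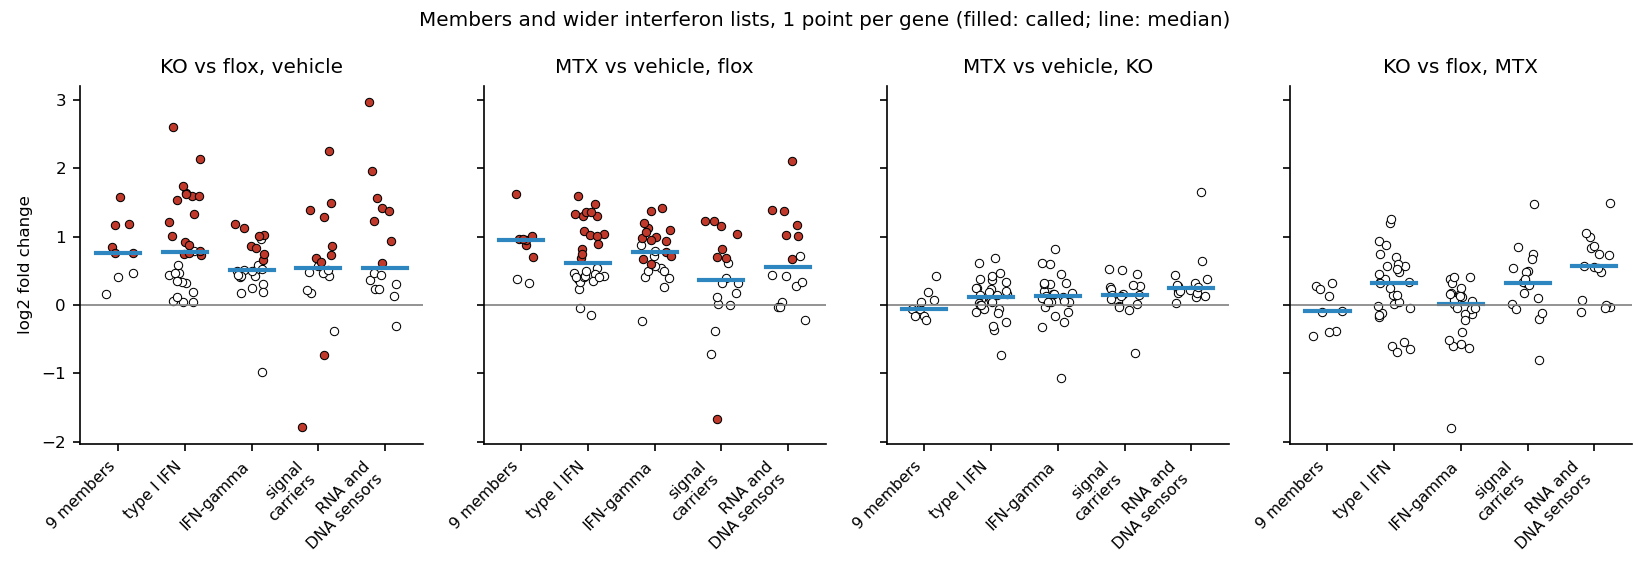
log2 fold changes (y axis) of the 9 members and of 4 wider lists in the 4 pairwise comparisons, with 1 point per gene, filled where called, and a line at the median of each list. For the members the median was 0.76 and 0.95 in the left panels and -0.05 and -0.08 in the right ones.

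The interferons themselves were at or near 0. None of 21 interferon genes passed the filter, and 14 of them had 0 counts in all libraries, which allows up to 3 counts or 0.125 to 0.154 CPM per library, for counting error only. How reads shared among the Ifna genes were assigned is not stated, and this limit does not cover reads left out for that reason. Ifng had 36 counts in 11 libraries with at most 8 in any, Ifnk had 17, Ifnz 11, Ifna13 2, and Ifnb1, Ifnab and Ifne 1 each. The counts of Ifng were 1, 2 and 1 in flox vehicle, 2, 4 and 4 in KO vehicle, 4, 1 and 0 in flox MTX and 5, 8 and 4 in KO MTX mice. The summed level of the 21 genes was 0.0851 to 0.142 CPM in flox vehicle, 0.254 to 0.683 CPM in KO vehicle, 0.0513 to 0.231 CPM in flox MTX and 0.177 to 0.415 CPM in KO MTX mice. The KO vehicle sums lay above the flox vehicle sums, on a few reads per library, and differences in interferon transcripts were not tested.

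The members followed each other to unequal degrees over the 12 libraries. As a description over libraries that share groups, with no test, the correlation of log2 levels was closest for Bst2 with Oasl2 (Pearson r = 0.946), Rsad2 with Bst2 (0.875) and Isg15 with Bst2 (0.869), and least for Irf1 with Ifit3 (0.0694) and Irf7 with Gbp2 (0.0678). Among genes outside the lists, Lgals9, which encodes galectin-9, was most like the mean standardized level of the members (r = 0.949 over 12 libraries), followed by Stmn2 (0.944), Gm38211 (0.93), Cited2 (0.927) and Gm19514 (0.922).

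The order of the group means differed between members above the shared lowest place of flox vehicle. Bst2 and Rsad2 were highest in KO MTX mice (69.4 ± 5.71 and 27.3 ± 7.87 CPM, SD, n = 3 each), as was Oasl2 (44.8 ± 10.6 CPM), and Irf1 and Irf7 were highest in KO vehicle mice (55.3 ± 4.34 and 29.1 ± 1.28 CPM). Isg15, Ifit1, Ifit3 and Gbp2 were highest in flox MTX mice (7.60 ± 1.07, 12.7 ± 2.47, 28.7 ± 9.07 and 84.3 ± 8.10 CPM). Apart from steps that start at flox vehicle, no pair of groups tested differed past the call limits for any member. Exons of Irf1, Irf7 and Gbp2 share 135, 45 and 24 bases with a gene on the opposite strand, and since the strand setting of the counting is not stated, reads there cannot be assigned to one of the genes.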

How the data were processed

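RNA of eWAT from 12 mice was sequenced. Per the labels and methods, the authors trimmed reads with Trimmomatic 0.36, aligned with STAR 2.5.2b to mm10 (GRCm38) and ran featureCounts of Subread 1.5.2 on Ensembl genes. The deposited values are raw counts, not normalized. The methods describe ribodepletion and the labels polyA RNA, and the strand setting is not given in the sources used here.

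The main test was edgeR 4.0.16 under R 4.3.3 (TMM, filterByExpr by group, 1 coefficient per group over 12 libraries, quasi-likelihood F-test, Benjamini-Hochberg adjustment over 18702 genes). Intervals use the moderated degrees of freedom. Marker sums are CPM of all counts. Levels per kb divide by exon length in GENCODE M21. Correlations use log2(CPM + 0.5). The members and lists were chosen with earlier results of these data known. Named genes are the 9 members, the 3 genes with the smallest p per wider list and comparison, and the 5 outside genes most correlated with the members. A gene that this rule names is not reported here.

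Results were recomputed with DESeq2 1.42.0, with RLE factors or no factors for scaling, with no low-count filter or a floor of 10 counts per library, with a block for the replicate number, with a fit to the 6 compared libraries, with other call limits, and without each library in turn. In a simulation of KO against flox under vehicle, 200 of 18702 genes were changed 4-fold. There edgeR found 138 and also called 13 unchanged genes, while DESeq2 found 160 and also called 90. The simulated counts used the dispersions that edgeR estimated, and far fewer genes changed than the 5924 called in the real comparison. The result therefore does not give the error rates of either tool in these data. Libraries of a group differed beyond counting noise (chi-square per degree of freedom of at least 14.1 in 12 pairs).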

Additional observations from a re-analysis of the deposited data

Results flagged for a closer look

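For 2 genes the effect of MTX was called different between the genotypes by the test of the difference itself. Both differences take in the flox vehicle group, which held the epididymal and sperm cell transcripts. Bst2 had an interaction of -0.9296 on the log2 scale (edgeR adjusted p = 0.086), with KO and flox mice under MTX overlapping and flox vehicle mice apart from the other 9. Ifitm3, of the wider type I list, had an interaction of -1.081 (edgeR adjusted p = 0.0924) with the same arrangement of groups. The Bst2 call was lost in 14 of 20 alternatives, and Ifitm3 was not recomputed with the alternatives.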

How the results depend on the processing

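Over all members and comparisons, 879 of 936 alternative values kept their direction and their side of the call limits, 38 lost the call, 3 gained it and 16 changed sign. All changes of sign were in the 2 comparisons without a call. With a limit of 1.5 on the log2 scale, 3026 genes and 1 member were called in KO against flox under vehicle, 2791 genes and 1 member in MTX against vehicle in flox mice, and 0 members in the interaction. DESeq2 called 2769 genes in KO against flox under MTX, 281 in MTX against vehicle in KO mice, and 1248 genes and 4 members in the interaction. Without a filter on low counts these 3 comparisons had 875, 20 and 472 genes, and with a floor of 10 counts per library the first had 1491 genes, MTX in flox mice 2198, and the interaction 1 gene and 0 members. Fitting only the compared libraries called 4 genes in KO against flox under MTX, 2167 in MTX in flox mice and 3 in MTX in KO mice.

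Replicate numbers gave no pairing of mice: residuals of 12 same-numbered pairs correlated at a median of 0.0516, the lowest at -0.369, and those of 42 other pairs at -0.0149. With the number as a block 2771 genes were called in MTX in flox mice, against 4528 in the main fit. In the interaction 0 genes and 0 members were called, Bst2 standing at -0.894 (edgeR adjusted p = 0.227).

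With library size alone, 0 members were called in the interaction, and Irf7 and Isg15 had 0.0904 and 0.0718 in KO against flox under MTX. This scaling moved the median of all genes for MTX in flox mice from 0.0509 to -0.153 and the share of calls that were higher from 33.4% to 17.5%. That share was 20.6% with the block and 12.3% with the compared libraries alone.

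Leaving out 1 library at a time gave 0 to 4064 genes in KO against flox under MTX (4064 without flox MTX replicate 2 and 1028 when flox vehicle replicate 3 was left out), 2219 to 5995 in MTX in flox mice (2219 without flox vehicle replicate 3), 0 to 215 in MTX in KO mice (215 without KO vehicle replicate 3), and 5 to 1371 genes with 0 to 1 members in the interaction (5 without KO vehicle replicate 2, 1371 without flox vehicle replicate 4). The member values that changed sign then ranged from -0.276 to 0.0876 for Irf7 and from -0.0837 to 0.582 for Oasl2 in KO against flox under MTX. In MTX against vehicle in KO mice they ranged from -0.15 to 0.0148 for Irf1, from -0.176 to 0.094 for Isg15, from -0.43 to 0.0263 for Ifit1, from -0.138 to 0.264 for Rsad2 and from -0.0226 to 0.301 for Oasl2. The cause of these changes was not tested. Depth limits the interferon genes, which were at most 8 counts in any library.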
